A study of Sus scrofa with 6 samples.

Results

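RING and F-box ubiquitin ligases were followed in the longissimus dorsi, the long muscle of the back, of Shaziling and Yorkshire piglets. A probe set counted as a member when its gene symbol began with RNF, MARCH, TRIM, FBXO, FBXL or FBXW and a digit, or when its title held the words RING finger protein, membrane-associated ring finger, tripartite motif or F-box. This gave 100 of the 23999 non-control probe sets on the array, 49 of them by symbol and 51 by title words alone, and they covered 53 gene names. By name, 23 belonged to the RNF group, 18 to TRIM, 20 to FBXO, 6 to FBXL, 6 to FBXW and 6 to MARCH, and the remaining 21 were placed by title. The title words also brought in a few probe sets that are no plain ligases, such as one titled for the RNA-binding protein MEX3C and one titled for both a ribonuclease P subunit and TRIM39.

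Ubiquitin is activated by an E1 enzyme, passed to an E2 conjugating enzyme and placed on its target with the help of an E3 ligase, which chooses the target. RING proteins, among them the RNF, TRIM and MARCH families, bind the loaded E2 directly. F-box proteins are the exchangeable target-binding parts of SCF ligases, which are built on a cullin. In skeletal muscle this system removes worn contractile proteins, and the F-box protein FBXO32 (atrogin-1) and the RING protein TRIM63 (MuRF1) are known for their induction when muscle wastes.

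The Shaziling group, an indigenous Chinese breed, and the Yorkshire group, a lean commercial breed, held 3 male piglets each, all of 25 days and untreated as far as the labels say. The 3 animals of a breed shared both parents, and the breeds were kept on separate farms, so that breed, litter and farm cannot be told apart and p-values measure the spread between siblings. Each animal gave 1 Affymetrix porcine array. Values are the authors' log2 signals and, where 3 values are listed for a breed, they belong to replicates 4, 5 and 6 of Shaziling and to replicates 1, 2 and 3 of Yorkshire. A Present call, made by the authors' software, marks a signal above that of the mismatch probes, and probe sets Present on at least 3 of the 6 arrays were tested.

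The share of Present probe sets was 59.9%, 56.3% and 58.1% in Shaziling, against 59.9%, 58.2% and 60.6% in Yorkshire. The tissue label was borne out by 8 tested fibre markers of a list of 10, including creatine kinase CKM at 15.21, 15.37 and 15.13 in Shaziling and 15.13, 15.04 and 15.17 in Yorkshire. The summed linear signal of that list lay from 170919 to 198829 in Shaziling and from 146469 to 190530 in Yorkshire. Markers of other cells moved with breed in part. Of 7 macrophage and neutrophil markers 6 were on the array and 4 were tested, 3 positive and 1 negative. The 6 on the array, tested or not, summed to 1117 to 1707 in Shaziling and 648 to 1344 in Yorkshire, which overlapped. LYZ, the lysozyme gene, was the only 1 to pass the threshold (log2 fold change 2.05, limma adjusted p = 0.0425). Of 5 T and B cell markers 4 were on the array and 2 were tested, while CD3E and CD4 had no Present call. The 4 on the array, with the background signals of CD3E and CD4 included, summed to 196 to 242 in Shaziling and 150 to 165 in Yorkshire. The sums of the adipocyte, matrix, endothelial and smooth muscle markers overlapped between breeds. The 4 tested endothelial markers went both ways, 2 up and 2 down, from VWF at 2.25 (limma adjusted p = 0.120) to CDH5 at -0.68 (limma adjusted p = 0.468). Of 4 nerve and Schwann cell markers 1 was on the array, at a linear signal of 275 to 357 in Shaziling and 155 to 235 in Yorkshire, without overlap (limma adjusted p = 0.348). The part of these other cells in the ligase results below was not tested, and in whole muscle fewer cells of a type and less RNA per cell cannot be told apart.

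Of the 100 ligase probe sets, 72 were tested. All 6 arrays called 54 of them Present, and none called 22. In the muscle of Shaziling piglets 1 probe set of MARCH6 rose and the single probe set of RNF157 fell, and no other ligase probe set passed an adjusted p under 0.05 in limma. RNF157 entered the test only through its 3 Yorkshire Present calls, with 0 in Shaziling, and with every probe set tested its call was lost (limma adjusted p = 0.0734). These 2 of 72 stand beside 0.215% of all 14413 tested probe sets, 0.0971% higher and 0.118% lower in Shaziling. An unadjusted p under 0.05 was reached by 10 ligase probe sets, 5 higher and 5 lower in Shaziling, which is 13.9% of those tested against 10.4% of all tested probe sets (4.38% higher and 6.02% lower). The signals of the breeds did not overlap in 17 ligase probe sets, 8 higher and 9 lower in Shaziling, or 23.6% against 16.3% of all tested (7.42% higher and 8.89% lower). The median log2 fold change of the ligases was -0.09, with 31 positive and 41 negative, against -0.04 over all tested probe sets. Cyclic loess, a normalization that moved the median of all probe sets to 0.00, put that of the ligases at -0.03. Most ligases differed little: 54 of the 72 fold changes (75.0%) lay within 0.5 of 0 on the log2 scale, against 78.4% of all tested.

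**Figure D1:**
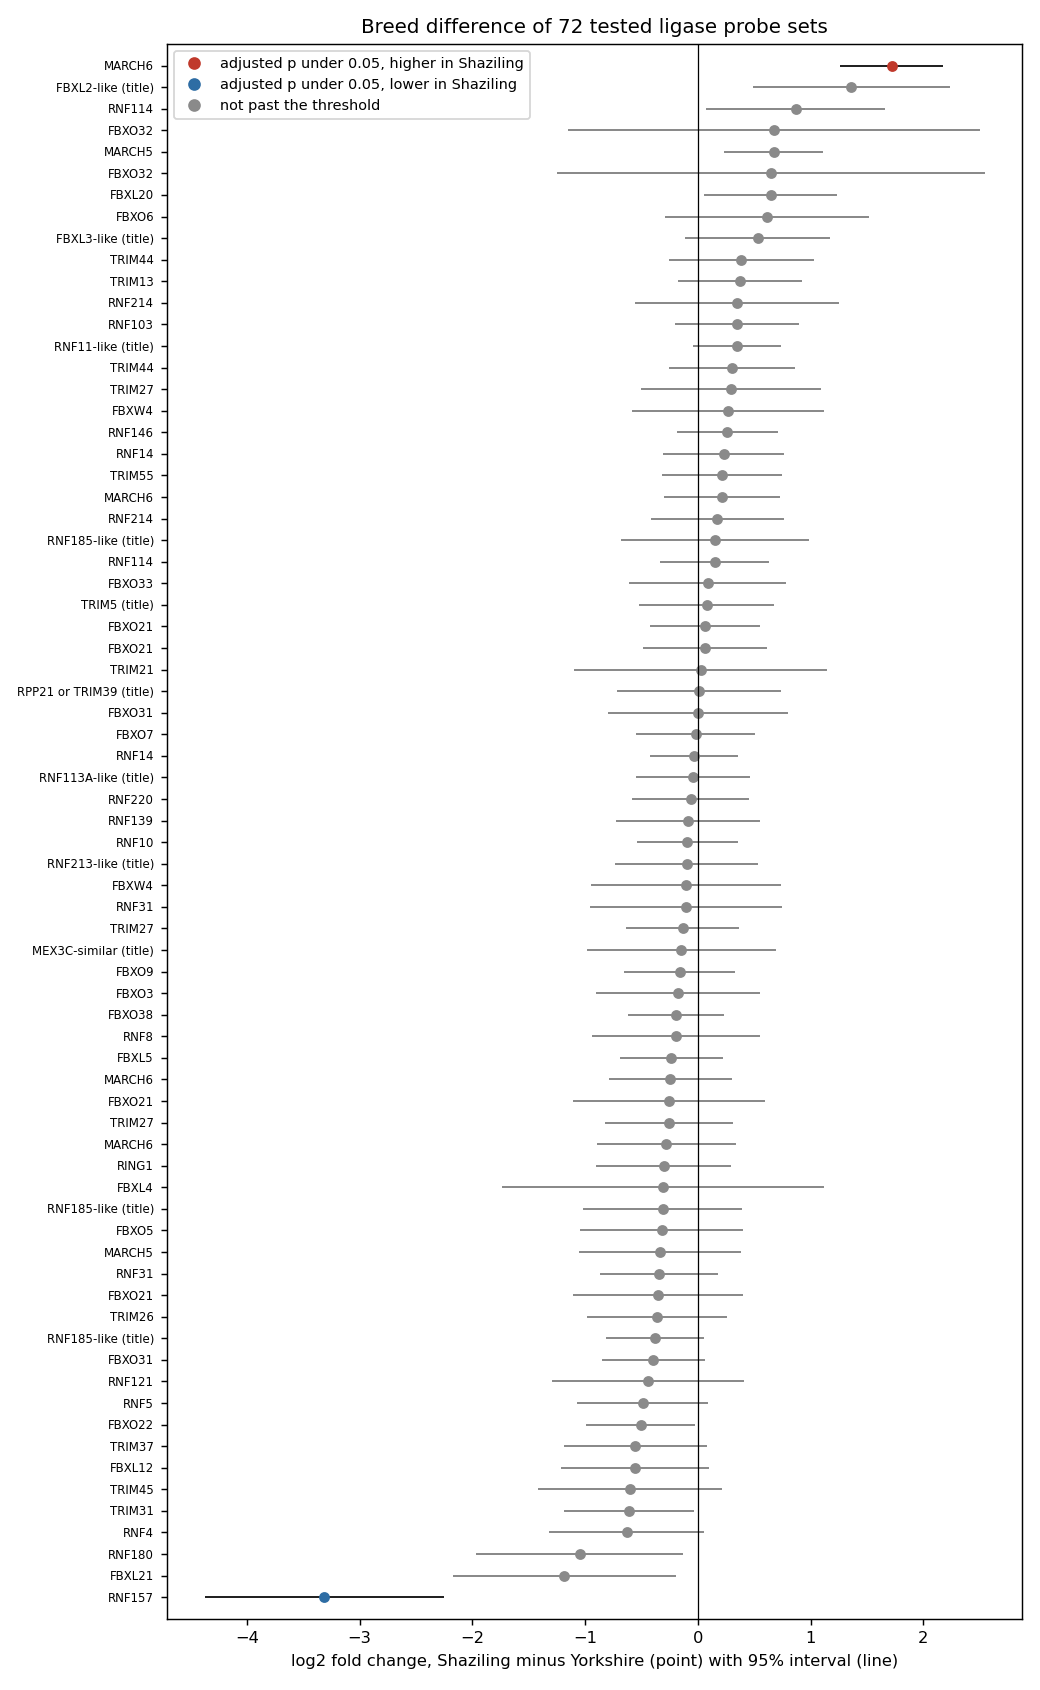
Log2 fold change of each of the 72 tested ligase probe sets, Shaziling minus Yorkshire, as a point with its 95% interval from limma (horizontal axis), ordered by size down the page. The intervals of MARCH6 at the top (1.27 to 2.17) and RNF157 at the bottom (-4.37 to -2.26) belong to the 2 probe sets past the threshold, and the widest intervals around 0 are those of FBXO32.

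MARCH6 is a ligase of the endoplasmic reticulum membrane that marks misfolded proteins and sterol-synthesis enzymes for degradation. It had 4 probe sets, which the file places side by side on the minus strand of chromosome 16; the file's genome build is not readable, so positions are those of the file. The probe set nearest the 3′ end (chromosome 16, 69470364 to 69471159) had signals of 11.21, 11.51 and 11.43 in Shaziling, against 9.66, 9.88 and 9.46 in Yorkshire. Every Shaziling array was above every Yorkshire array by more than the spread among siblings. The means were 11.38 ± 0.16 in Shaziling and 9.67 ± 0.21 in Yorkshire (SD, n = 3), a log2 fold change of 1.72 (SE 0.20), or 3.29-fold (limma adjusted p = 0.0176).

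The other 3 MARCH6 probe sets did not pass, and their signals overlapped between breeds. The next target upstream in the transcript (69471159 to 69473018) had 10.78, 11.08 and 10.95 in Shaziling, against 10.73, 11.09 and 10.36 in Yorkshire (log2 fold change 0.21, SE 0.22, limma adjusted p = 0.787). The one after it (69473643 to 69473968) had 10.12, 10.48 and 10.45 in Shaziling, against 10.47, 11.02 and 10.29 in Yorkshire, and the last (69473922 to 69477210) had 10.22, 10.32 and 10.27 against 10.06, 11.13 and 10.46. Their log2 fold changes were -0.24 (SE 0.24) and -0.28 (SE 0.27), with limma adjusted p-values of 0.767 and 0.765. The 95% interval of the 3′ probe set met none of the other 3, whose upper ends were 0.71, 0.29 and 0.33. MARCH6 was the only one of 13 ligase genes with several tested probe sets whose intervals stood apart.

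Set against the mean of the other 3 on the same array, the 3′ probe set was 0.84, 0.89 and 0.87 above it in Shaziling, against -0.76, -1.19 and -0.91 in Yorkshire. The difference between breeds in this within-array contrast was 1.82 (exact permutation p = 0.1, two-sided, the smallest that 3 arrays against 3 allow). The contrast was taken on the same signals in which the 3′ probe set already separated the breeds, so this p is no independent sign of a difference. Averaged over its 4 probe sets, MARCH6 had a log2 fold change of 0.35 and did not pass (limma adjusted p = 0.628; the alternatives spanned 0.00197 to 0.628). It also lost the call without Shaziling replicate 5 (adjusted p = 0.115), without Shaziling replicate 6 (0.0808), without Yorkshire replicate 1 (0.122) and with a constant prior variance (0.0606).

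MARCH5, a ligase of the outer mitochondrial membrane that acts on mitochondrial fission proteins, had 2 probe sets with the same layout on the plus strand of chromosome 14. The one nearest the 3′ end (109043948 to 109044374) had 10.63, 10.87 and 10.73 in Shaziling, against 9.90, 10.15 and 10.17 in Yorkshire. These signals did not overlap, but the difference of 0.67 (SE 0.19) did not pass (limma adjusted p = 0.281). It passed with array weights (0.0403), out of alternatives that spanned 0.0403 to 0.848. The upstream probe set (109041474 to 109042737), for which the file lists 0 probes matching a RefSeq transcript, had 7.06, 7.89 and 7.71 in Shaziling, against 7.41, 8.10 and 8.16 in Yorkshire, with overlapping signals and a fold change of -0.34 (SE 0.32, limma adjusted p = 0.759). Within arrays the 3′ probe set stood 3.57, 2.99 and 3.02 above the upstream one in Shaziling, against 2.48, 2.05 and 2.01 in Yorkshire, a difference of 1.01 (exact permutation p = 0.1, two-sided). As for MARCH6, the 3′ signals had already separated the breeds, so this p is no independent sign either.

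Both contrasts were larger in Shaziling, so the 3′ to 5′ signal of the array's control genes is given beside them. For GAPDH the 3′ minus 5′ difference was -0.36, -0.36 and -0.48 in Shaziling, against -0.24, -0.15 and -0.24 in Yorkshire, and the Shaziling values were the lower ones. One actin control pair had -0.09, -0.07 and 0.50 in Shaziling, against 0.25, 1.03 and -0.05 in Yorkshire, and the other had 4.16, 4.23 and 4.98 against 5.11, 4.82 and 4.97. The actin values overlapped between breeds. The part of RNA quality in the 2 contrasts was not tested.

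**Figure D2:**
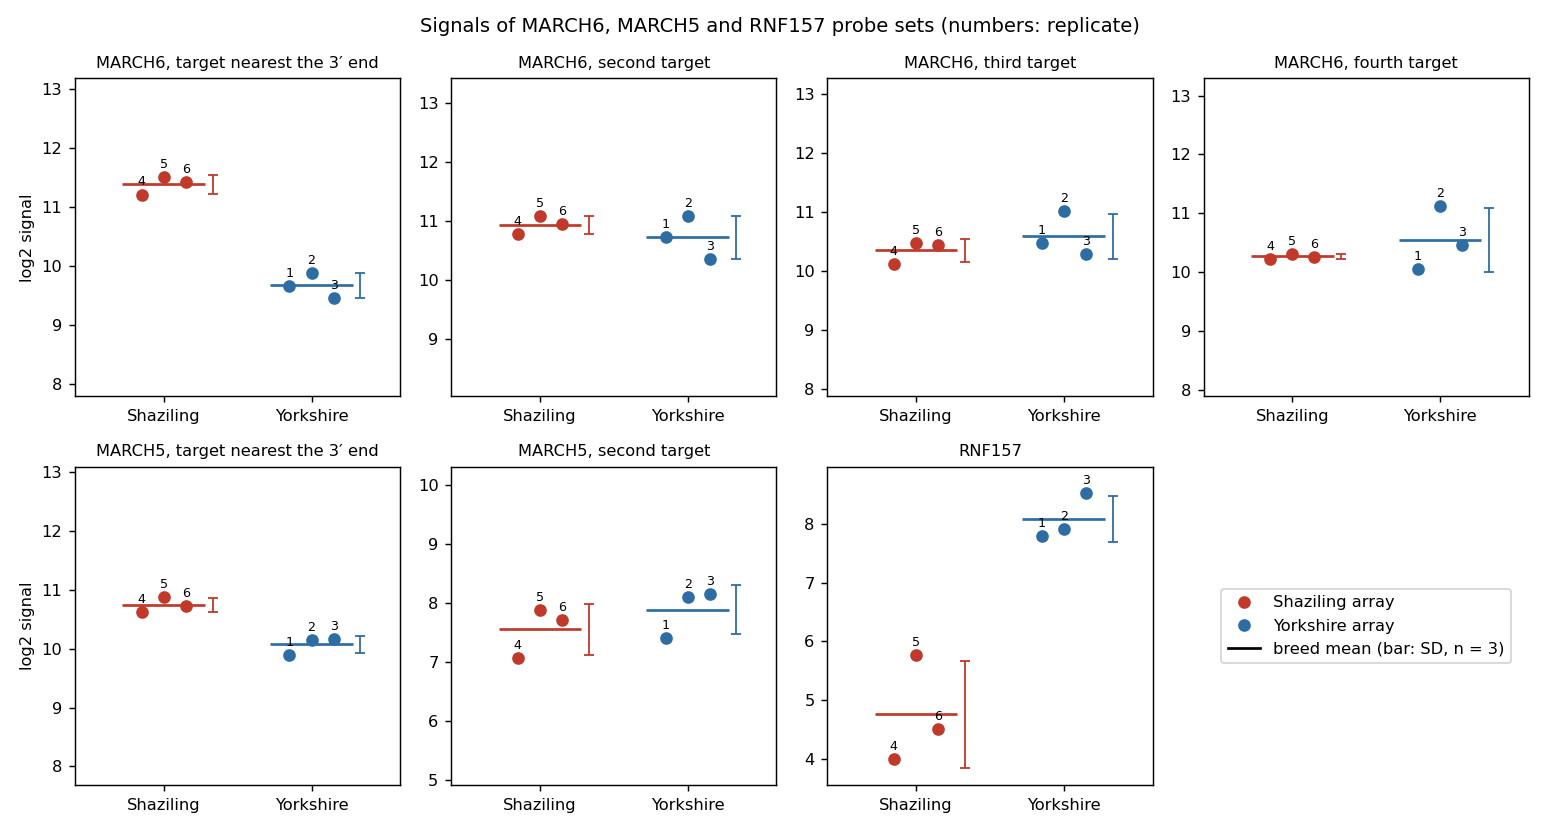
Log2 signal (vertical axis) of the 4 MARCH6 probe sets, the 2 MARCH5 probe sets and RNF157 on each array, with Shaziling left of Yorkshire, replicate numbers beside the points, a line at the breed mean and a bar for its SD (n = 3). The 3′ MARCH6 probe set separates the breeds (11.21 to 11.51 in Shaziling, 9.46 to 9.88 in Yorkshire) and the other 3 do not, while the RNF157 signals in Shaziling spread from 4.002 to 5.77.

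RNF157, a RING ligase studied chiefly in neurons of rodents, gave the largest fold change among the tested ligases. Its signals were 4.002, 5.77 and 4.52 in Shaziling, with no Present call, against 7.80, 7.91 and 8.52 in Yorkshire, with 3 Present calls. The means were 4.76 ± 0.91 in Shaziling and 8.08 ± 0.39 in Yorkshire (SD, n = 3). The fitted log2 fold change was -3.31 (SE 0.47, limma adjusted p = 0.0406), or 9.94-fold lower in Shaziling. Its limma interval ran from -4.37 to -2.26. As Shaziling was not above background on any array, this fold is an estimate against background signals and not a lower bound. The filter let this probe set in through Yorkshire alone and the Shaziling signals in the fit are background, so the p is no independent sign of a difference. The file aligns this probe set to chromosome 12 (3667075 to 3667317, minus strand) with an identity of 79.4% and lists 0 probes matching a RefSeq transcript, so that the gene it measures is uncertain. The file lists 0 such probes for 12 of the 72 tested ligase probe sets, among them those of FBXL21, TRIM31, RNF4, TRIM21 and 1 of FBXO32.

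The fall of RNF157 kept its direction in all alternatives that tested it, between -3.82 and -2.69, but its call was lost in several. Leaving out any array other than Shaziling replicate 5 did this, with adjusted p-values of 0.0520 without Shaziling replicate 4, 0.144 without Shaziling replicate 6, and 0.149, 0.0885 and 0.0980 without Yorkshire replicates 1, 2 and 3. A constant prior variance gave 0.0793. TRIM21, an antibody receptor of the cytosol that is itself a RING ligase, also had no Present call in Shaziling and 3 in Yorkshire. Its signals overlapped, at 6.37, 6.84 and 5.82 in Shaziling, against 6.65, 5.27 and 7.05 in Yorkshire. With this overlap and no Shaziling signal above background, no fold is given.

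Of the other RNF probe sets, 18 of the 19 tested did not pass. RNF180, a membrane ligase, had 5.51, 4.67 and 5.15 in Shaziling, against 5.77, 6.36 and 6.35 in Yorkshire, without overlap but with a Present call on only 1 Shaziling array (log2 fold change -1.05, SE 0.40, limma adjusted p = 0.398). RNF114, a ligase with zinc fingers, had 2 probe sets. One, which the file notes as open to cross-hybridisation, had 6.19, 6.37 and 6.79 in Shaziling, against 5.87, 5.57 and 5.32 in Yorkshire (0.87, SE 0.35, limma adjusted p = 0.430), and the other had a fold change of 0.15 (SE 0.21). RNF4, which targets proteins carrying SUMO chains, had 10.29, 9.40 and 9.07 in Shaziling, against 10.17, 10.18 and 10.30 in Yorkshire. The Yorkshire siblings lay within 0.13 of each other and Shaziling replicate 4 lay with them, so the breeds overlapped (-0.63, SE 0.30, limma adjusted p = 0.517).

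Some further RING ligases of the endoplasmic reticulum membrane, picked here by their known place in the cell after values were seen, did not pass. RNF5 had 7.77, 7.79 and 7.29 in Shaziling, against 8.13, 7.88 and 8.31 in Yorkshire (log2 fold change -0.49, SE 0.26, limma adjusted p = 0.552). Its relative RNF185, measured by 3 probe sets named by title, had fold changes of -0.38 (SE 0.19), -0.31 and 0.15. RNF139 had -0.09 (SE 0.28), RNF103 had 0.35 (SE 0.24) and TRIM13 had 0.38 (SE 0.24). The Shaziling signals of TRIM13 (8.99, 8.36 and 8.58) lay above all Yorkshire signals (8.31, 8.16 and 8.34, limma adjusted p = 0.636). Those of RNF5 and of the RNF185 set at -0.38 lay below all Yorkshire signals. Such a lack of overlap was seen in 16.3% of all tested probe sets.

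Among the TRIM proteins 0 of 12 tested probe sets passed in limma. An unadjusted p under 0.05 was reached by 1 of the 12, against 10.4% of all tested probe sets. TRIM55 (MuRF2), a relative of TRIM63 that binds the sarcomere, had 11.58, 11.72 and 11.38 in Shaziling, against 11.79, 10.93 and 11.32 in Yorkshire. The breeds overlapped fully for it, with a log2 fold change of 0.22 (95% interval -0.31 to 0.74, limma adjusted p = 0.789). TRIM31 had the smallest p of the group, with 8.91, 8.40 and 8.57 in Shaziling, against 8.87, 9.43 and 9.42 in Yorkshire (-0.61, SE 0.25, limma adjusted p = 0.436). TRIM37, a ligase tied to peroxisomes and centrioles, had 9.62, 8.68 and 9.45 in Shaziling, against 10.002, 9.72 and 9.69 in Yorkshire (-0.55, SE 0.28, limma adjusted p = 0.534). TRIM31 overlapped between breeds through Shaziling replicate 4, and TRIM37 did not overlap. TRIM45 had 10.24, 9.04 and 9.07 in Shaziling, against 10.35, 9.54 and 10.27 in Yorkshire, so that Shaziling replicate 4 again lay with Yorkshire (-0.60, SE 0.36). The file notes the TRIM45 probe set as Negative Strand, so that it may not read the TRIM45 transcript. A probe set titled TRIM32-like, which the member rule does not reach, had 7.58, 7.60 and 7.79 in Shaziling, against 7.94, 8.11 and 8.35 in Yorkshire (-0.48, SE 0.23, limma adjusted p = 0.529).

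FBXO32, the atrogin-1 of wasting muscle, differed far more between siblings than between breeds. Its 2 probe sets, on the plus strand of chromosome 4, gave the same picture. The one at 15502836 to 15504072 had 9.70, 11.89 and 11.30 in Shaziling, against 9.74, 12.40 and 8.81 in Yorkshire. Shaziling replicates 5 and 6 and Yorkshire replicate 2 were high, the other 3 animals were low, and each breed held both. The highest and lowest siblings differed 4.56-fold within Shaziling and 11.97-fold within Yorkshire. The other probe set (15479870 to 15501638) had 7.55, 9.77 and 9.32 in Shaziling, against 7.36, 10.18 and 7.08 in Yorkshire, with the same animals high and low.

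The breed difference of FBXO32 was small against this spread. The log2 fold changes were 0.65 (SE 0.84, limma adjusted p = 0.828) and 0.67 (SE 0.81, limma adjusted p = 0.815). Their 95% intervals, from -1.24 to 2.53 and from -1.15 to 2.49, leave room for a difference of either sign. Without Yorkshire replicate 2 the first was 1.69, and without Yorkshire replicate 3 it was -0.10. The within-breed SD of FBXO32 lay at percentiles 99.3 and 99.2 of all tested probe sets.

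Among the regulators listed upstream of the atrophy ligases, KLF15 and CEBPD, both transcription factors induced by glucocorticoids, were picked after their values were seen. KLF15 had 8.32, 9.43 and 9.36 in Shaziling, against 8.90, 10.08 and 8.49 in Yorkshire. CEBPD, in its probe set of highest signal, had 11.38, 12.70 and 12.68 in Shaziling, against 11.99, 12.83 and 11.44 in Yorkshire. In both the same 3 animals were the highest as for FBXO32. How many of the 14 tested regulators share this was not counted, and a link to FBXO32 was not tested. FOXO1, a forkhead factor that activates FBXO32 in rodent muscle, had 9.35, 9.83 and 9.94 in Shaziling, against 9.70, 10.96 and 10.31 in Yorkshire, with Yorkshire replicate 2 highest but Yorkshire replicate 3 next. FBXL4, a mitochondrial F-box protein that restrains mitophagy, had 6.97, 8.43 and 7.55 in Shaziling, against 7.55, 9.50 and 6.82 in Yorkshire, with Yorkshire replicate 2 and Shaziling replicate 5 highest.

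An order in which Yorkshire replicate 2 was the highest of its breed and Shaziling replicate 4 the lowest of its own was held by 13 of the 72 ligase probe sets (18.1%), against 16.7% of all tested. The share is near the background and is no result about the ligases. The mean deviation of the 8 fibre markers from their mean over the 6 arrays was 0.03, 0.11 and -0.05 in Shaziling, against 0.15, -0.28 and 0.04 in Yorkshire, so that Yorkshire replicate 2 was the lowest. In one actin control pair that animal had the highest 3′ minus 5′ value of all arrays, 1.03, and in the other the lowest of Yorkshire, 4.82. The part of the fibre markers or of the control signals in the FBXO32 signal was not tested.

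**Figure D3:**
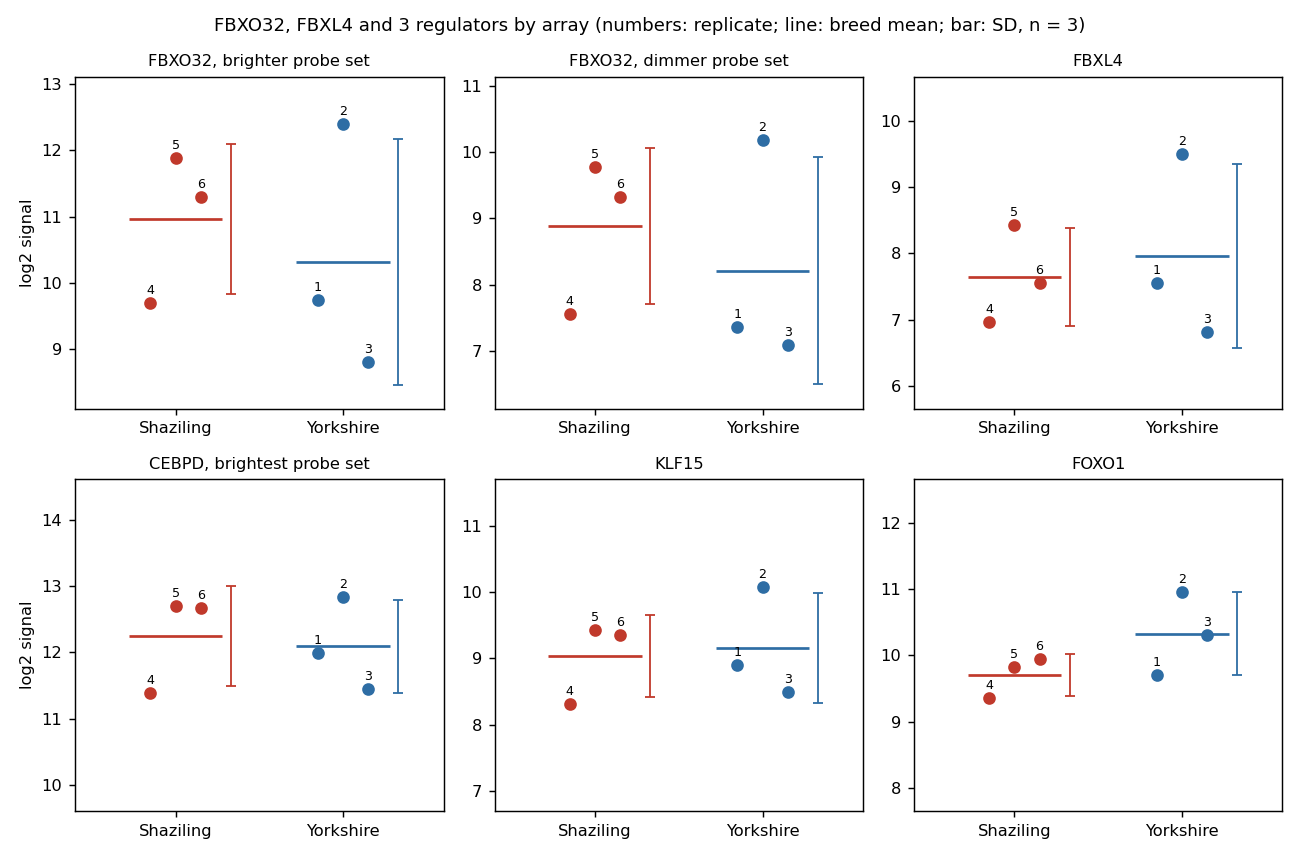
Log2 signal (vertical axis) of both FBXO32 probe sets, FBXL4, CEBPD, KLF15 and FOXO1 on each array, with Shaziling left of Yorkshire, replicate numbers beside the points, a line at the breed mean and a bar for its SD (n = 3). Shaziling replicates 5 and 6 and Yorkshire replicate 2 are the 3 highest for FBXO32, CEBPD and KLF15, so that high animals occur in both breeds.

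FBXO21 and FBXO31, F-box proteins that forkhead factors induce in wasting mouse muscle, showed no such spread. FBXO21 had 4 tested probe sets, with log2 fold changes of 0.06, 0.06, -0.26 and -0.35 and limma adjusted p-values of 0.760 to 0.953. The one of highest mean signal had 9.08, 9.34 and 9.53 in Shaziling, against 9.24, 9.28 and 9.23 in Yorkshire, within 0.05 of each other. FBXO31 had 2 probe sets. One had 10.19, 9.88 and 9.90 in Shaziling, against 10.24, 10.56 and 10.36 in Yorkshire, without overlap (-0.39, SE 0.20, limma adjusted p = 0.538), and the other had a fold change of 0.00 (SE 0.35).

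Of the remaining FBXO probe sets, FBXO22, an adaptor for histone demethylases, had 8.98, 9.02 and 9.40 in Shaziling, against 9.63, 9.63 and 9.67 in Yorkshire. These did not overlap (log2 fold change -0.51, SE 0.21, limma adjusted p = 0.448), and the file's alignment of the probe set had an identity of 48.6%. FBXO6, which binds sugar chains of glycoproteins, had 5.81, 5.46 and 6.11 in Shaziling, against 4.86, 5.38 and 5.31 in Yorkshire, with Present calls on 2 and 1 arrays and a note of cross-hybridisation (0.61, SE 0.40, limma adjusted p = 0.646). In all 0 of 16 tested FBXO probe sets passed in limma. An unadjusted p under 0.05 was reached by 1 of the 16, against 10.4% of all tested probe sets.

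The FBXL proteins, whose F-box is joined to leucine-rich repeats, gave 0 of 5 past the threshold in limma and 2 at an unadjusted p under 0.05, a level reached by 10.4% of all tested probe sets. FBXL21, which acts on the cryptochromes of the circadian clock in mice, had 7.78, 5.99 and 6.83 in Shaziling, against 8.31, 8.27 and 7.58 in Yorkshire. Shaziling replicate 4 lay above Yorkshire replicate 3, so the breeds overlapped (log2 fold change -1.18, SE 0.44, limma adjusted p = 0.381). FBXL20 had 7.35, 7.74 and 7.59 in Shaziling, against 6.93, 6.72 and 7.09 in Yorkshire, without overlap (0.64, SE 0.26, limma adjusted p = 0.426). FBXL12, an adaptor for cell cycle inhibitors, had 7.29, 6.61 and 7.44 in Shaziling, against 7.56, 7.68 and 7.77 in Yorkshire (-0.56, SE 0.29, limma adjusted p = 0.547). FBXL5, which senses iron and directs the decay of an iron regulatory protein, had 11.21, 11.51 and 11.27 in Shaziling, against 11.59, 11.27 and 11.84 in Yorkshire (-0.24, SE 0.20, limma adjusted p = 0.734).

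Probe sets known only by a title included one called F-box/LRR-repeat protein 2-like, with the largest positive fold change after MARCH6. Its signals were 6.51, 5.84 and 6.44 in Shaziling, all Present, against 4.96, 4.71 and 5.04 in Yorkshire, with 1 Present call. The breeds did not overlap (log2 fold change 1.36, SE 0.39), but it did not pass (limma adjusted p = 0.281) and the file notes cross-hybridisation. One titled F-box/LRR-repeat protein 3-like had 10.07, 11.14 and 10.98 in Shaziling, against 10.10, 10.28 and 10.23 in Yorkshire, with replicate 4 apart from its siblings (0.53, SE 0.28, limma adjusted p = 0.559). Of the FBXW proteins, whose F-box is joined to WD repeats, FBXW4 alone was tested. Its 2 probe sets had fold changes of 0.27 (SE 0.38) and -0.10 (SE 0.37).

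None of the 8 ligase probe sets of highest mean signal passed, and those of TRIM55, FBXL5, FBXO32 and the second MARCH6 target are given above. A high signal says nothing of a gene's level against another's, since probes differ in affinity. The one titled RING finger protein 11-like had 12.89, 12.97 and 13.13 in Shaziling, against 12.74, 12.36 and 12.85 in Yorkshire, without overlap (log2 fold change 0.35, SE 0.17, limma adjusted p = 0.531). RNF146, a ligase that acts on proteins carrying poly-ADP-ribose, had 11.98, 12.49 and 12.62 in Shaziling, against 12.04, 12.21 and 12.06 in Yorkshire (0.26, SE 0.20). RNF10, a ligase of ribosomal proteins, had 11.85, 11.53 and 11.99 in Shaziling, against 11.99, 11.60 and 12.05 in Yorkshire (-0.09, SE 0.20). RNF14, a ligase that also binds the androgen receptor, had 11.68, 11.35 and 11.47 in Shaziling, against 11.51, 11.52 and 11.57 in Yorkshire (-0.04, SE 0.17), with a 95% interval from -0.41 to 0.34.

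Spread among siblings was, at the median, about that of the array at large. The median within-breed SD was 0.31 on the log2 scale, against 0.34 over all tested probe sets. Above the 90th percentile of all tested probe sets lay 6 of the 72, or 8.33%, namely both probe sets of FBXO32 and those of FBXL4, TRIM21, RNF157 and FBXL21. At the other end FBXO38 had an SD of 0.07, with 9.91, 9.88 and 10.01 in Shaziling and 10.20, 10.11 and 10.06 in Yorkshire (log2 fold change -0.19, SE 0.19, limma adjusted p = 0.763).

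**Figure D4:**
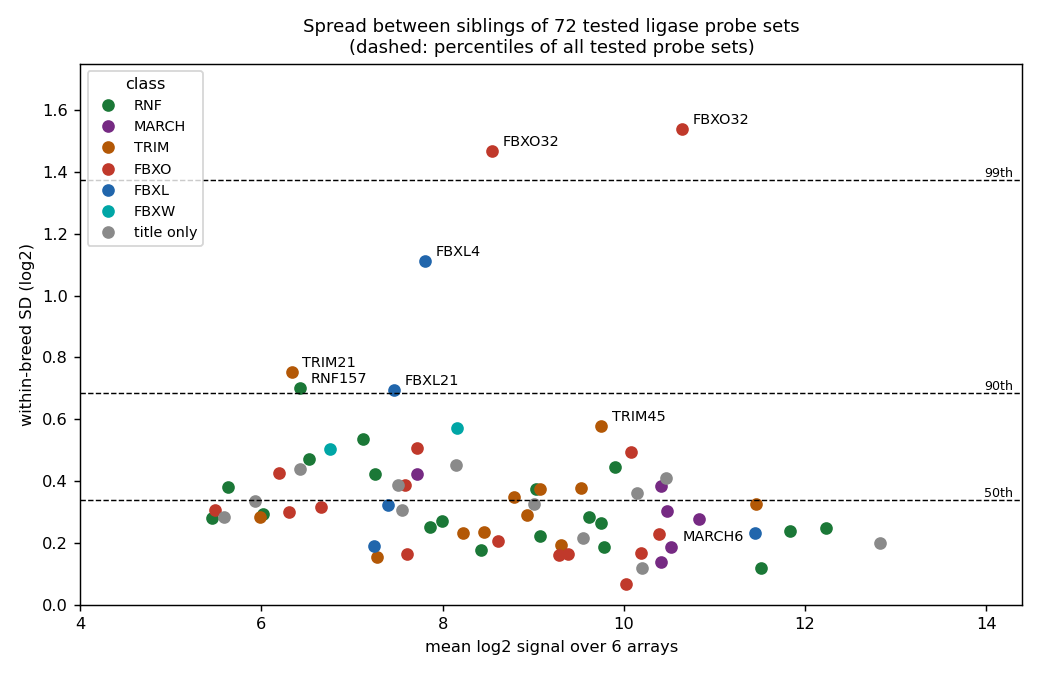
Within-breed SD (log2, vertical axis) against mean log2 signal over the 6 arrays (horizontal axis) for the 72 tested ligase probe sets, coloured by class, with the 50th, 90th and 99th percentiles of all tested probe sets as dashed lines. Both FBXO32 probe sets lie above the 99th percentile and FBXL4 lies above the 90th, while the 3′ MARCH6 probe set lies below the 50th.

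Genes with several probe sets show how far fold changes varied between probe sets of 1 gene. Among the 13 such ligase genes, with 32 tested probe sets, the fold changes differed in sign in 8. After MARCH6 and MARCH5 the widest gap was that of RNF114, at 0.71 on the log2 scale, then that of TRIM27 at 0.55, a repressor that joins chromatin complexes. The narrowest was that of FBXO32, at 0.03.

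The other parts of the ubiquitin system were read from lists, counting 1 probe set per gene, and 0 genes passed in limma in any of the 6 described here. UBB, a gene for ubiquitin itself, had 15.01, 15.27 and 15.15 in Shaziling, against 14.98, 14.97 and 15.01 in Yorkshire, which overlapped (log2 fold change 0.16, SE 0.11, limma adjusted p = 0.667). Of 36 E1 and E2 enzymes 16 were tested, 8 positive and 8 negative with a median of -0.01. An unadjusted p under 0.05 was reached by 1 gene of the 16, against 10.4% of all tested probe sets. That gene was UBE2E2, an E2 enzyme, with 9.07, 8.95 and 8.90 in Shaziling, against 8.07, 7.69 and 8.20 in Yorkshire, without overlap (0.99, SE 0.23, limma adjusted p = 0.173).

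The SCF and cullin core, on which F-box proteins sit, had 11 of 22 genes tested, 5 positive and 6 negative, with a median of -0.02. An unadjusted p under 0.05 was reached by 1 gene of the 11, against 10.4% of all tested probe sets. NEDD8, the ubiquitin-like protein that switches cullins on, had 11.14, 11.35 and 10.49 in Shaziling, against 10.31, 10.16 and 10.62 in Yorkshire (log2 fold change 0.63, SE 0.26, limma adjusted p = 0.431). A list of 41 further ligases that the member rule does not reach, mostly of the HECT, U-box and UBR kinds but with some RING proteins among them, had 12 tested, 5 positive and 7 negative with a median of -0.01. Of these 3 had an unadjusted p under 0.05, as had 10.4% of all tested probe sets. UBR1, the ligase of the N-degron pathway, had 9.90, 10.19 and 10.31 in Shaziling, against 9.44, 9.63 and 9.42 in Yorkshire (0.64, SE 0.21, limma adjusted p = 0.323). A second UBR1 probe set had 0.68 (SE 0.26), its relative UBR2 had 0.62 (SE 0.27) and the HECT ligase WWP1 had 0.79 (SE 0.27). Of the 12 tested genes 4 did not overlap between breeds, as did 16.3% of all tested probe sets. UBR1 was among them, as were HERC1, another HECT ligase, and UBE4A, a U-box ligase, which had -0.35 (SE 0.20) and -0.46 (SE 0.26). The deubiquitinases, which take ubiquitin off again, had 12 of 26 tested, 5 positive and 7 negative, with a median of -0.07 and 0 at an unadjusted p under 0.05.

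Of 25 regulators upstream of the atrophy ligases 14 were tested, 8 positive and 6 negative with a median of 0.11, and 3 had an unadjusted p under 0.05, against 10.4% of all tested probe sets. PPARGC1A, a coactivator that holds back atrophy ligases in mouse muscle, had 9.80, 9.94 and 9.20 in Shaziling, against 10.71, 10.69 and 10.38 in Yorkshire (log2 fold change -0.94, SE 0.24, limma adjusted p = 0.230). The growth factor IGF1 and the growth inhibitor MSTN had -1.08 (SE 0.34, limma adjusted p = 0.314) and 0.95 (SE 0.32, limma adjusted p = 0.332). All 3 genes were without overlap. Over the whole list 4 of the 14 tested genes did not overlap, against 16.3% of all tested probe sets. Of 22 known substrates of FBXO32 and TRIM63 16 were tested, 15 of them positive, with a median of 0.12 and 0 at an unadjusted p under 0.05. Their median was -0.02 under cyclic loess, so its sign depended on the scaling.

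The 28 ligase probe sets left untested comprised the 22 Present on no array and 6 Present on 1 or 2. Among them were all 3 probe sets of FBXW9 and those of FBXW5, TRIM50, TRIM15, RNF122 and RNF208, and further probe sets of FBXO21, FBXL20, TRIM31, TRIM45, RNF121 and RNF31. No level is given for these. No member probe set carried the names TRIM63, TRIM54, TRIM72, FBXO30, FBXO40, FBXL22, FBXW7 or RNF123, and these muscle ligases were not analysed here.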

How the data were processed

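Total RNA of longissimus dorsi was hybridised to 1 Affymetrix array per piglet, 3 per breed. The authors deposited log2 signals with Present, Marginal and Absent calls; the submitters' processing notes name MAS5 as the tool, with no version. Each array's 2% trimmed mean lay between 500.1 and 500.2 on the linear scale, and the 2 deposited tables had 0 differing values. The number of arrays limits the precision.

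From these, 124 control probe sets were left out, and the 14413 Present on at least 3 arrays entered 1 limma fit (version 3.58.1, R 4.3.3, lmFit and eBayes with trend) of Shaziling minus Yorkshire. P-values were adjusted by Benjamini-Hochberg over all of them, with a threshold of 0.05. Adjusted p-values and intervals come from this fit, which was tested on simulated data. It recovered 21.8% of simulated log2 changes of 1 and 69.4% of those of 2, so a ligase that did not pass may still differ. Errors were drawn independently in the simulation, so it cannot speak to siblings or to arrays that vary together. Exact permutation tests used SciPy 1.17.1. Symbols were updated through the file's gene IDs and a RefSeq table of Sscrofa11.1, used for names alone; MARCH symbols, which the file holds as dates, were restored from its transcript text.

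The members and lists were chosen with earlier results of these data known. Title words were matched in any case. The text names member probe sets past the threshold, ligases with known muscle roles, the up to 4 of smallest p in each class, the 8 of highest signal, other probe sets of these genes, and up to 4 genes per further list; the endoplasmic reticulum ligases, TRIM21, TRIM27, FBXL4, FBXO38, KLF15, CEBPD, LYZ and CKM were added after values were seen. Alternatives were other filters, quantile and cyclic loess normalization, an offset of 16, a constant prior variance, array weights, gene means, leaving out each array, and title words matched in the rule's own case. A few list genes are not reported here.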

Additional observations from a re-analysis of the deposited data

How the results depend on the processing

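The count of 2 ligase probe sets past the threshold was 2 when a Present call on 1 array sufficed, under quantile normalization, under cyclic loess, with 16 added before log2 and with title words in the rule's own case. It was 1 with no filter, 1 with probe sets Present on all 6 arrays and 1 with the mean over probe sets of a gene, and 3 with array weights, which added MARCH5 (limma adjusted p = 0.0403, in a fit that called 364 of all probe sets). With a constant prior variance it was 0, with 11 at an unadjusted p under 0.05. Leaving out 1 replicate gave 0 to 1. It was 0 without Shaziling replicate 6 (5 at an unadjusted p under 0.05) and without Yorkshire replicate 1 (7), and no probe set of the whole array passed in limma in either. It was RNF157 alone without Shaziling replicate 5, and MARCH6 alone without Shaziling replicate 4, Yorkshire replicate 2 or Yorkshire replicate 3.

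Of 559 alternative fold changes over 38 named probe sets, 520 kept direction and side of the threshold, 12 lost the threshold, 1 passed it and 26 changed sign, all 26 in probe sets that did not pass. Under the mean over probe sets of a gene the sign changed for MARCH5 upstream (0.17), the 2 last MARCH6 targets (0.35), 2 FBXO21 sets (-0.12), FBXW4 (0.082), RNF14 (0.10) and FBXO31 (-0.20). Under array weights it changed for MARCH5 upstream (0.041), the last MARCH6 target (0.049), TRIM55 (-0.11) and FBXO21 (-0.075), and with the offset for FBXO31 (-0.00027). Leaving out 1 replicate gave signs of both kinds for FBXO32 (-0.10 to 1.69), the last MARCH6 target (-0.52 to 0.012), 3 FBXO21 sets (-0.043 to 0.18, -0.039 to 0.17 and -0.49 to 0.072), FBXO31 (-0.30 to 0.23), both FBXW4 sets (-0.50 to 0.11 and -0.010 to 0.58), RNF10 (-0.23 to 0.036) and RNF14 (-0.12 to 0.039). The causes were not tested. No paired analysis was possible because the labels give no pairing of animals between breeds. With 3 siblings per breed, no difference between breeds at large can be read from these arrays.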
